A study of Mus musculus with 5 samples.

Results

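Oxidative phosphorylation was followed across its nuclear and its mitochondrial genes in sorted fetal muscle cells of the mouse. The members were taken by gene name from the deposited table: nuclear rows of the families Nduf (a, b, c, s and v), Sdh, Uqcr, Cyc1, Cycs, Cox4 to Cox8 and Atp5, without Ndufa4l2 and without names marked as pseudogenes, plus the mitochondrial protein genes. This gave 103 of 25873 named genes, 90 of them nuclear and 13 mitochondrial, by name alone, although the set was proposed with earlier results of these data known. The rule left out 4 rows of similar name (Ndufa4l2, Atp5c1-ps, Uqcrh-ps1 and Ndufs5-ps). The cells were tdTomato-positive, lineage-negative limb muscle cells of C57BL/6J fetuses at E16.5. All 3 groups carried the Pax7-CreER driver and the Rosa-tdTomato reporter, and mothers of all groups had received oral tamoxifen (240 mg/kg, 2 days, from E12.5). The WT group (2 libraries, WT Em2 and WT Em4) had no floxed Notch allele, the Notch1 cKO group (1 library, Em8) was Notch1f/f, and the Notch2 cKO group (2 libraries, Em3 and Em4) was Notch2f/f. Pax7-CreER acts in Pax7-expressing cells, so tdTomato marks cells of the Pax7 lineage that recombined, including their differentiating progeny.

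Oxidative phosphorylation passes electrons from NADH and succinate through complexes I to IV to oxygen and uses the resulting proton gradient to make ATP at complex V. Complexes I, III, IV and V are assembled from subunits of both genomes, whereas complex II and cytochrome c are wholly nuclear. Mitochondrial DNA is transcribed from both strands into long precursors that are cut into single RNAs, so the mitochondrial genes share their transcription while each nuclear gene has its own promoter. Skeletal muscle is known for a high respiratory capacity that builds up as fibres mature, and for muscle isoforms of some complex IV subunits.

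ATP8 and ATP6, the mitochondrial subunits of the ATP synthase membrane part, lie on 1 mitochondrial transcript and share bases, which bears on how their reads can be assigned. The 204 bases of ATP8 (chrMT:7766-7969, plus strand) and the first 90 bases of ATP6 (chrMT:7927-8016, plus strand) are printed 5′ to 3′ from the GENCODE M21 transcripts (GRCm38), with the 43 shared bases in capitals.
ATP8: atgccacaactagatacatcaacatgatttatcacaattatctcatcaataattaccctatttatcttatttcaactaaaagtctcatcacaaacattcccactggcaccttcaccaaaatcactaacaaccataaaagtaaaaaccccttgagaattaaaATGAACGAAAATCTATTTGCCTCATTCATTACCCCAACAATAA
ATP6: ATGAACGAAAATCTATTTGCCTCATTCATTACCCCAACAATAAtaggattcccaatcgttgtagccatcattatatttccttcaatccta
ND4L and ND4 share 7 bases on the same strand (chrMT:10167-10173), and ATP6 and COX3 share 1 base (chrMT:8607-8607). ND5 and ND6 share 14 bases on opposite strands (chrMT:13552-13565), and ND6 is the single protein gene on the minus strand. No strand information is given for these libraries, so reads from opposite strands cannot be told apart.

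A further group of mitochondrial genes has nearly identical nuclear copies. In the GENCODE M21 transcripts, 7 pseudogenes in a row on chromosome 1 (chr1:24611535-24616197, minus strand, 4663 bases) repeat COX1, COX2, ATP6, COX3, ND3, ND4L and ND4. Of the 50-base stretches of each gene, 99.5% of COX2, 99.5% of ATP6, 99.9% of COX3, 98.0% of ND3 and 98.8% of ND4L occur unchanged in the single pseudogene that shares most with it. The share was 62.2% for ND4 and 28.7% for COX1. Over all other annotated genes together it was 51.1% for COX1, from 3 genes, and 100% for COX2, from 2 genes. The 233 bases between the COX2-like and the ATP6-like pseudogene (chr1:24614652-24614884) hold no annotated gene, so the same comparison finds no copy for ATP8. No shared stretch was found for ND1, CYTB and ND6 either. With the best match of ND2 on chromosome 2 and of ND5 on chromosome 13, 9 mitochondrial members have such a pseudogene, and 0 of these 9 best matches is a row of the deposited table. The sources used here do not state how reads with several possible origins were counted, so the levels of these mitochondrial genes are uncertain to that extent.

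Nuclear members were compared by promoter letters, because genes of this pathway are known targets of NRF1 (nuclear respiratory factor), of GABPA, an ETS factor, and of YY1. RefSeq promoters (GRCm38.p6, 250 bases before to 50 after the start) matched 70 of the 90 nuclear members. The letters GCATGCGC (NRF1), on either strand, stood in 11 of 70 member promoters (15.7%) and in 2.80% of all 27025 promoters of the same length. The letters CCGGAAGT (GABPA) stood in 5 of 70 (7.10%, against 4% of all) and AAGATGGC (YY1) in 9 of 70 (12.9%, against 2.88% of all). At least 1 of the 3 stood in 24 of 70 (34.3%, against 9.15% of all). The NRF1 letters overlap with their own reverse complement, GCGCATGC, in 5 of the 11 promoters. Of the 9 promoters with the YY1 letters, 8 held them after the start of the transcript. A match is a description of the sequence and shows no binding. The 150 bases before the start of 4 members described below are shown with matching letters in capitals, each read on the gene's own strand: Atp5h (chr11:115419920-115420069, minus), Cycs (chr6:50566570-50566719, minus), Atp5g2 (chr15:102671048-102671197, minus) and Sdhb (chr4:140961121-140961270, plus).
Atp5h: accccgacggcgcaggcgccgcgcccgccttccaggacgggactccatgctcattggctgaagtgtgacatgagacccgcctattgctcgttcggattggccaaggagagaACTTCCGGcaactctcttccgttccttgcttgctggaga
Cycs: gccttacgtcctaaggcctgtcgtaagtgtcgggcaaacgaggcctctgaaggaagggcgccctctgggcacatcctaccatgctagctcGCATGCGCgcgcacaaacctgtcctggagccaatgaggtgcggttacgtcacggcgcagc
Atp5g2: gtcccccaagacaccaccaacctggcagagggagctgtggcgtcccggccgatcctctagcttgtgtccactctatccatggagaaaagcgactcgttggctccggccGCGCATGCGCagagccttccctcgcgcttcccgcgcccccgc
Sdhb: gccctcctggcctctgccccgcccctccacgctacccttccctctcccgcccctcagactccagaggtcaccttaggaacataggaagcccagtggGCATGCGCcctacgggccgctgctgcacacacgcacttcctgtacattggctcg
Atp5h carries the GABPA letters on the reverse strand, Cycs and Sdhb the NRF1 letters on the forward strand, and Atp5g2 the NRF1 letters on both strands in 1 overlapping run.

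Levels are RPKM, reads scaled to gene length and to the reads of the library, as the authors deposited them. Values of a pair are given in the order Em2 and Em4 for WT and Em3 and Em4 for Notch2 cKO. Depth recovered from the RPKM steps ran from 20740258 to 28827897 reads per library. Notch1 stood at 7.255 and 13.54 RPKM in the WT libraries and at 2.33 RPKM in the Notch1 cKO library. Notch2 stood at 2.397 and 4.169 RPKM in WT and at 3.346 and 2.031 RPKM in Notch2 cKO, so these groups overlapped, and gene-level RPKM also counts exons outside a floxed part and does not check the label. WT Em2 stood apart from the other libraries in nuclear members, and summary values that move with it are given without it where they first appear. The labels do not say whether libraries came from separate fetuses or litters, so p-values concern these libraries only. With 2 residual degrees of freedom and a prior of 103.8, p-values and SE rest mainly on a spread pooled over genes of similar level. They say little about the spread of the single gene between its own replicates.

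The nuclear and the mitochondrial subset did not move together across libraries. The summed level of the 90 nuclear members was 79805 and 50515 RPKM in WT, 64776 in Notch1 cKO, and 46419 and 46500 in Notch2 cKO. The summed level of the 13 mitochondrial members was 17657 and 16464 RPKM in WT, 20869 in Notch1 cKO, and 17634 and 18666 in Notch2 cKO. Both Notch2 cKO libraries were below both WT libraries in the nuclear sum, whereas in the mitochondrial sum Notch2 cKO Em3 lay between the WT libraries. The ratio of nuclear to mitochondrial sum was 4.52 and 3.07 in WT, 3.10 in Notch1 cKO, and 2.63 and 2.49 in Notch2 cKO. The distance between the WT libraries in this ratio was larger than that between WT Em4 and either Notch2 cKO library. As shares of all named genes' RPKM, nuclear members held 10.7% and 8.15% in WT, 9.50% in Notch1 cKO, and 7.66% and 7.76% in Notch2 cKO. Mitochondrial members held 2.37% and 2.66% in WT, 3.06% in Notch1 cKO, and 2.91% and 3.12% in Notch2 cKO. RPKM is relative to the library, so fewer cells of a type and less RNA per cell cannot be told apart in these bulk samples.

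**Figure D1:**
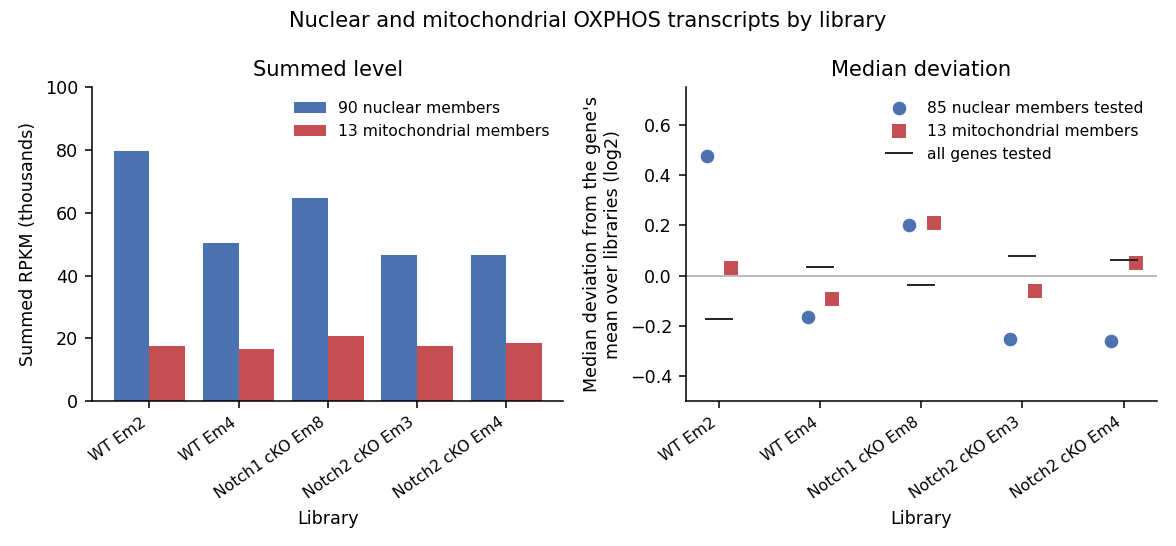
Left, summed RPKM (axis in kilo-RPKM) of the 90 nuclear (blue bars) and 13 mitochondrial members (red bars) in each of the 5 libraries; right, the median over genes of the log2 deviation from each gene's mean over libraries, for 85 nuclear members tested (circles), 13 mitochondrial members (squares) and all genes tested (dashes). The nuclear sum spans 46419 to 79805 RPKM with WT Em2 highest, while the mitochondrial sum spans 16464 to 20869 RPKM with Notch1 cKO Em8 highest.

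A typical mitochondrial gene stood above a typical nuclear one in each library. The median nuclear member was at 651.7 and 391.4 RPKM in WT, 483.9 in Notch1 cKO, and 374.4 and 389.8 in Notch2 cKO. The median mitochondrial member was at 1206 and 1141 RPKM in WT, 1448 in Notch1 cKO, and 1330 and 1188 in Notch2 cKO. The mitochondrial median was 1.85 times the nuclear one in WT Em2 and 2.92 times in WT Em4, against 2.99 in Notch1 cKO and 3.55 and 3.05 in Notch2 cKO. The median deviation of nuclear members from their own means over libraries, on the log2 scale, was 0.48 and -0.16 in WT, 0.20 in Notch1 cKO, and -0.25 and -0.26 in Notch2 cKO. For mitochondrial members it was 0.03 and -0.10 in WT, 0.21 in Notch1 cKO, and -0.06 and 0.05 in Notch2 cKO. Nuclear minus mitochondrial was therefore 0.45 and -0.07 in WT, -0.01 in Notch1 cKO, and -0.19 and -0.31 in Notch2 cKO, with a within-group SD of 0.27.

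No member passed the test in any of the 3 comparisons. Testing used limma on log2(RPKM + 1) over the 11543 genes whose mean reached 1 RPKM, among them 85 of the 90 nuclear and all 13 mitochondrial members, with Benjamini-Hochberg adjustment over all genes at 0.05. In Notch2 cKO against WT, 0 of 98 members were called, where 0.537% of all genes tested were. In Notch1 cKO against WT, 0 of 98 were called, against 0.0693% of all genes. In Notch2 cKO against Notch1 cKO, 0 of 98 were called, against 0.485% of all genes. At an unadjusted p under 0.05 the count was 18 members in Notch2 cKO against WT (7.63% of all genes), 1 in Notch1 cKO against WT (1.85% of all genes) and 8 in Notch2 cKO against Notch1 cKO (8.66% of all genes). The smallest adjusted p (limma) of a nuclear member was 0.371, 0.662 and 0.329 in these comparisons, and of a mitochondrial member 0.394, 1 and 0.634. limma voom, run on whole reads recovered from RPKM, also called 0 members in each comparison. Among all genes tested it called 1 in Notch2 cKO against WT, 3 in Notch1 cKO against WT and 14 in Notch2 cKO against Notch1 cKO.

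The calls turned on the WT libraries. Without WT Em4, 37 of 98 members passed in Notch2 cKO against WT, all of them nuclear and lower, where 2.41% of all genes passed. Without WT Em2, 1 member passed, ATP8, which was higher, where 0.112% of all genes passed. In Notch2 cKO against Notch1 cKO, 4 members passed without WT Em2 (0.507% of all genes) and 5 without WT Em4 (0.485% of all genes). With a WT library left out, the spread rests on the Notch2 cKO pair alone. WT is no part of Notch2 cKO against Notch1 cKO, so there only the spread changed, and the nuclear median stayed at -0.47.

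Nuclear members stood mostly below WT in Notch2 cKO, while mitochondrial members lay above WT about as often as all genes tested. The median log2 fold change was -0.40 over the 85 nuclear members, 0.10 over the 13 mitochondrial members and 0.14 over all genes tested. Of the nuclear members 72 lay below 0 and 13 above, and of the mitochondrial members 4 lay below and 9 above. Of all 11543 genes tested, 3684 lay below 0 and 7859 above, so the mitochondrial count was near the share of all genes. Under median-of-ratios scaling, which moves the median of all genes to -0.05, the nuclear median was -0.62 and the mitochondrial median -0.12, so the sign of the mitochondrial median depends on the scaling. With libraries rescaled to equal sums without mitochondrial rows the medians were -0.23 (nuclear), 0.27 (mitochondrial) and 0.28 (all genes), and after quantile normalization -0.15, 0.40 and 0.00. For 43 of the 85 nuclear members (50.6%) both Notch2 cKO libraries were below both WT libraries, against 9.44% of all genes tested. Against WT Em4 alone, both were below for 45 of the 85 (52.9%), against 28% of all genes. For 4 of the 85 (Ndufs1, Cox6a2, Cox8b and Sdhd) both were above, against 28.3% of all genes. Of the mitochondrial members, 2 (ND2 and ND4) were below and 1 (CYTB) was above without overlap. The counts against both WT libraries use WT Em2, whose nuclear members lay a median of 0.71 (log2) above WT Em4, and whose mitochondrial members lay 0.09 above it. Without WT Em2 the nuclear median against WT was -0.11 and the mitochondrial one 0.13.

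In Notch1 cKO against WT, the median log2 fold change was 0.03 over nuclear members (51 above 0 and 34 below), 0.33 over mitochondrial members (11 above and 2 below) and 0.01 over all genes. In Notch2 cKO against Notch1 cKO it was -0.47 over nuclear members (17 above and 68 below), -0.23 over mitochondrial members (3 above and 10 below) and 0.12 over all genes. Of the 11543 genes tested, 5944 (51.5%) lay above 0 in Notch1 cKO against WT and 7135 (61.8%) in Notch2 cKO against Notch1 cKO. These comparisons share libraries with each other and with that of Notch2 cKO against WT. Notch1 cKO Em8 lay above WT Em4 by a median of 0.41 in nuclear and 0.37 in mitochondrial members. From WT Em2 it differed by a median of -0.29 in nuclear and 0.22 in mitochondrial members. The Notch2 cKO libraries differed from each other by a median of 0.02 in nuclear and 0.03 in mitochondrial members.

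Among the mitochondrial genes, ND1, a core subunit of the complex I membrane arm, was the most abundant. ND1 (chrMT:2751-3707) stood at 3626 and 2970 RPKM in WT, 4156 in Notch1 cKO, and 3360 and 3732 in Notch2 cKO. CYTB, the only mitochondrial subunit of complex III (chrMT:14145-15288), stood at 2612 and 2463 RPKM in WT, 3223 in Notch1 cKO, and 2669 and 3035 in Notch2 cKO. For ND1 the Notch2 cKO libraries lay close to the WT range and the groups overlapped, while for CYTB they lay just above it with a log2 fold change of 0.17 ± 0.39 (SE). The Notch1 cKO library was the highest of the 5 for both genes. Neither ND1 nor CYTB shares a 50-base stretch with another annotated transcript.

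The other complex I genes of mitochondrial DNA were less abundant than ND1 in each library. ND2 stood at 1205 and 1116 RPKM in WT, 1641 in Notch1 cKO, and 1099 and 885 in Notch2 cKO. ND4 stood at 1391 and 1457 RPKM in WT, 1788 in Notch1 cKO, and 1387 and 1188 in Notch2 cKO. Both were lower in each Notch2 cKO library than in each WT library, by -0.23 ± 0.33 (ND2) and -0.15 ± 0.34 (ND4) on the log2 scale, differences smaller than their errors. ND5 stood at 345.2 and 428.2 RPKM in WT, 417.4 in Notch1 cKO, and 407.6 and 416.1 in Notch2 cKO. ND3 stood at 615.5 and 335.4 RPKM in WT, 432.2 in Notch1 cKO, and 379.9 and 354.6 in Notch2 cKO. ND4L stood at 223.8 and 149.2 RPKM in WT, 272 in Notch1 cKO, and 220.6 and 230.6 in Notch2 cKO. In these 3 genes the WT libraries lay farther apart than the Notch2 cKO libraries, and the groups overlapped. ND6, from the opposite strand, stood at 1195 and 1141 RPKM in WT, 1256 in Notch1 cKO, and 1330 and 779.3 in Notch2 cKO. ND6 was thus highest and lowest in the Notch2 cKO group, and its ratio to ND5 was 3.46 and 2.67 in WT, 3.01 in Notch1 cKO, and 3.26 and 1.87 in Notch2 cKO.

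The 3 mitochondrial subunits of complex IV, which form its catalytic core, kept no common order among libraries. COX1 stood at 1257 and 1851 RPKM in WT, 2251 in Notch1 cKO, and 1810 and 1343 in Notch2 cKO. COX2 stood at 1206 and 994 RPKM in WT, 1288 in Notch1 cKO, and 1089 and 1103 in Notch2 cKO. COX3 stood at 1808 and 1731 RPKM in WT, 1701 in Notch1 cKO, and 1757 and 2311 in Notch2 cKO. COX1 was low in WT Em2 and Notch2 cKO Em4, where COX3 was at its highest, so the ratio of COX3 to COX1 was 1.44 and 0.935 in WT, 0.756 in Notch1 cKO, and 0.971 and 1.72 in Notch2 cKO. The log2 fold changes of Notch2 cKO against WT were 0.03 ± 0.36 (COX1), 0.00 ± 0.33 (COX2) and 0.19 ± 0.36 (COX3).

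ATP8 had the largest difference of the mitochondrial genes in Notch2 cKO against WT. It stood at 858.5 and 392.7 RPKM in WT, 996.9 in Notch1 cKO, and 774.5 and 1485 in Notch2 cKO. WT Em4 was the lowest and Notch2 cKO Em4 the highest, but Notch2 cKO Em3 was below WT Em2, so the groups overlapped. The log2 fold change was 0.88 ± 0.33, with an adjusted p of 0.394 (limma). It reached an adjusted p of 0.00892 without WT Em2 and 0.014 when libraries were rescaled to equal sums without mitochondrial rows. Under that rescaling 0.234% of all genes tested were called. In Notch1 cKO against WT the log2 fold change of ATP8 was 0.78 ± 0.41. ATP6, which starts within ATP8, stood at 1313 and 1435 RPKM in WT, 1448 in Notch1 cKO, and 1351 and 1803 in Notch2 cKO. The ratio of ATP8 to ATP6 was 0.654 and 0.274 in WT, 0.689 in Notch1 cKO, and 0.573 and 0.824 in Notch2 cKO, so WT Em4 stood apart in ATP8 and not in ATP6. ATP8 is the shortest gene of the set (204 bases), and the printed run shows that 43 of them belong to both genes.

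**Figure D2:**
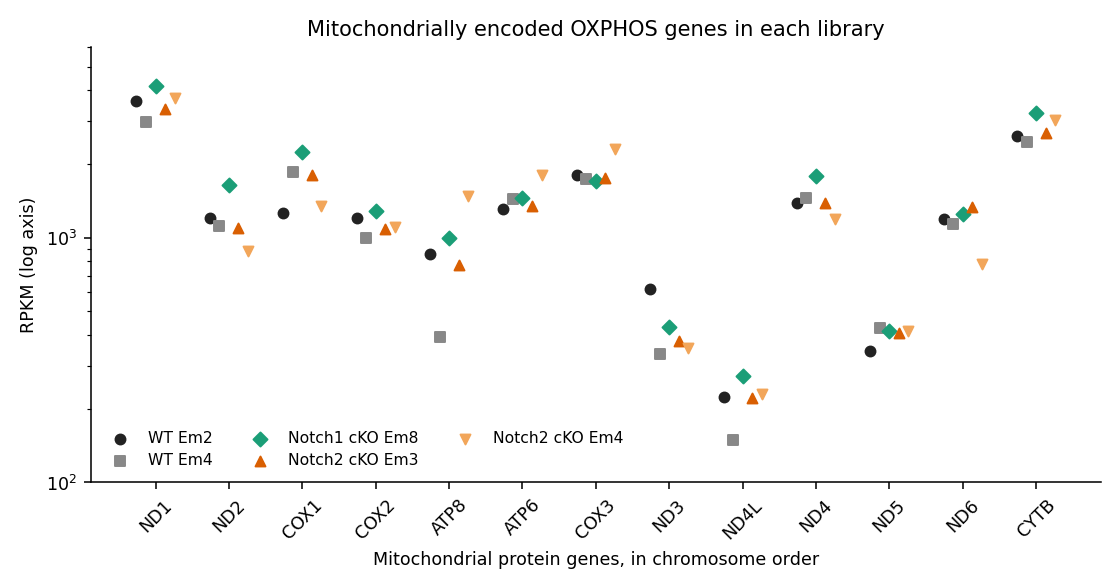
RPKM (log axis) of the 13 mitochondrial protein genes in chromosome order, 1 point per library (WT circles and squares, Notch1 cKO diamonds, Notch2 cKO triangles). ND1 and CYTB are the highest and ND4L the lowest, and the widest spread among libraries is that of ATP8, from 392.7 to 1485 RPKM.

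The mitochondrial ribosomal RNAs, which are no members, did not follow the protein genes. mt-Rnr1 stood at 2119 and 1547 RPKM in WT, 2029 in Notch1 cKO, and 1167 and 664 in Notch2 cKO. mt-Rnr2 stood at 9490 and 9475 RPKM in WT, 11890 in Notch1 cKO, and 6201 and 4430 in Notch2 cKO. Both Notch2 cKO libraries were below both WT libraries in each, with log2 fold changes of -1.04 (adjusted p of 0.257, limma) and -0.86 (adjusted p of 0.704, limma).

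In complex I, the NADH dehydrogenase and largest of the complexes, 39 of 40 nuclear members were tested, and 37 of them lay below 0 in Notch2 cKO against WT, with a median of -0.41, or -0.15 without WT Em2. The 7 core subunits, which carry the redox centres, had a median of -0.11, the 28 other subunits a median of -0.48 (-0.17 without WT Em2), and the 4 rows that are copies of a subunit gene a median of -0.41. The member of smallest p was Ndufb4, an accessory subunit of the membrane arm (chr16:37647602-37654368), at 246.1 and 115.6 RPKM in WT, 159.7 in Notch1 cKO, and 93.88 and 106.7 in Notch2 cKO. Ndufs5 stood at 546 and 278.4 RPKM in WT, 357.2 in Notch1 cKO, and 235.3 and 238.8 in Notch2 cKO. Ndufa3 stood at 1369 and 671.7 RPKM in WT, 1030 in Notch1 cKO, and 549.3 and 569.1 in Notch2 cKO. In all 3, which are accessory subunits, both Notch2 cKO libraries were the lowest, yet WT Em4 lay nearer to them than to WT Em2. The log2 fold changes were -0.75 ± 0.27 for Ndufb4 (adjusted p of 0.371), -0.72 ± 0.29 for Ndufs5 (0.478) and -0.78 ± 0.32 for Ndufa3 (0.505), all by limma.

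Ndufb4 also shows how copies limit these values. The row Ndufb4c, whose 50-base stretches all occur in other annotated genes (100%, Ndufb4 first), stood at 2.09 to 3.19 times the RPKM of Ndufb4. Ndufs6b stood at 22.1% to 25.5% of Ndufs6 and Ndufa11b at 22.8% to 27.4% of Ndufa11. Of the 50-base stretches of Ndufs6b 25.4% and of Ndufa11b 10.4% occur in another annotated gene, far less than for Ndufb4c. The row Ndufs5-ps, left out by the rule, stood at 87.4% to 112% of Ndufs5. Reads of these pairs may have been split, so the levels of both genes of a pair are uncertain. Of the 86 nuclear members matched in GENCODE M21, 52 share at least 1 stretch of 50 bases with another annotated gene, and the median share was 2.4%. Exon bases shared with a gene on the opposite strand were annotated for 23 nuclear members.

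The other end of complex I was held by Ndufs1, the largest core subunit, at the electron entry of the complex (chr1:63143592-63176822). Ndufs1 stood at 49.52 and 50.02 RPKM in WT, 36.68 in Notch1 cKO, and 58.25 and 80.61 in Notch2 cKO. Both Notch2 cKO libraries were above both WT libraries, and the Notch1 cKO library was the lowest. The log2 fold change was 0.45 ± 0.26 in Notch2 cKO against WT, -0.43 ± 0.32 in Notch1 cKO against WT, and 0.88 in Notch2 cKO against Notch1 cKO (adjusted p of 0.329, limma). Ndufa8, an accessory subunit, stood at 100.3 and 61.4 RPKM in WT, 112.4 in Notch1 cKO, and 98.26 and 84.21 in Notch2 cKO, with overlap. The 2 most abundant nuclear members of the complex were Ndufa2 and Ndufb8. Ndufa2 stood at 1632 and 923.4 RPKM in WT, 1237 in Notch1 cKO, and 760.8 and 769.7 in Notch2 cKO. Ndufb8 stood at 1294 and 1062 RPKM in WT, 1206 in Notch1 cKO, and 872.8 and 901.9 in Notch2 cKO. Both genes were lowest in the Notch2 cKO pair.

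Complex II, succinate dehydrogenase, differed from the other complexes in the sign of its median, 0.25 in Notch2 cKO against WT over 4 members, 3 of them above 0. That sign rested on Notch2 cKO Em4: without this library the median was -0.02, and the median deviation from the mean was -0.11 in Notch2 cKO Em3, 0.37 in Em4, and -0.05 and -0.02 in WT. Sdha, the flavoprotein, stood at 100.8 and 118 RPKM in WT, 92.96 in Notch1 cKO, and 109.7 and 160.8 in Notch2 cKO. Sdhb, the iron-sulfur subunit, stood at 531.1 and 499.1 RPKM in WT, 520.8 in Notch1 cKO, and 416.7 and 500.9 in Notch2 cKO. The membrane anchor Sdhc stood at 125.6 and 136.4 RPKM in WT, 150.4 in Notch1 cKO, and 127.3 and 183 in Notch2 cKO. In these 3 genes the groups overlapped. The other anchor, Sdhd (chr9:50596340-50603849), stood at 43.31 and 25.2 RPKM in WT, 43.07 in Notch1 cKO, and 44.05 and 53.1 in Notch2 cKO. Both Notch2 cKO libraries were above WT, Em3 only just above WT Em2, and the log2 fold change of 0.54 ± 0.27 had an adjusted p of 0.655 (limma). The complex also holds the least abundant set, with a median mean level of 130.5 RPKM against 381.3 for nuclear complex I and 862.2 for nuclear complex III.

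In complex III, the cytochrome bc1 complex, 6 of 8 tested members lay below 0 in Notch2 cKO against WT, with a median of -0.44, or -0.12 without WT Em2. Cyc1, cytochrome c1 (chr15:76343513-76346260), stood at 1310 and 1256 RPKM in WT, 2232 in Notch1 cKO, and 913.5 and 1170 in Notch2 cKO. The WT libraries were close to each other, Notch1 cKO lay above all others and both Notch2 cKO libraries lay below them. The log2 fold change of Cyc1 was 0.80 ± 0.42 in Notch1 cKO against WT, -0.31 ± 0.34 in Notch2 cKO against WT, and -1.11 in Notch2 cKO against Notch1 cKO (adjusted p of 0.347, limma). Uqcr10, a small subunit, stood at 2680 and 1429 RPKM in WT, 2053 in Notch1 cKO, and 1398 and 1250 in Notch2 cKO. The core protein Uqcrc2 stood at 198.8 and 191.3 RPKM in WT, 165.3 in Notch1 cKO, and 183.7 and 219.7 in Notch2 cKO. Uqcr10 thus followed WT Em2 as the accessory subunits of complex I did, and Uqcrc2 did not. Uqcr11 was listed at 0.09393 and 0.1004 RPKM in WT and at 0 in the other libraries, too near 0 to compare groups, and was not tested. No length or reads could be recovered for this row, and the tested nuclear members of the complex had mean levels of 192 to 1762 RPKM. Whether the row reflects the level of the gene or how its reads were counted is not known.

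Cytochrome c, the carrier between complexes III and IV and an activator of apoptosis when released, was measured through Cycs (chr6:50562563-50566569). It stood at 227.4 and 128.6 RPKM in WT, 137.1 in Notch1 cKO, and 121 and 136.9 in Notch2 cKO. WT Em2 stood apart, while the other 4 libraries lay within 121 to 137.1 RPKM. Of its 50-base stretches, 26.1% occur in other annotated genes, 76 in number, which makes its level uncertain.

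In complex IV, cytochrome c oxidase, 12 of 16 tested nuclear members lay below 0 in Notch2 cKO against WT, with a median of -0.39, or -0.03 without WT Em2. Cox5b stood at 503.6 and 295.4 RPKM in WT, 365.4 in Notch1 cKO, and 249.3 and 222.1 in Notch2 cKO. Cox4i1, the most abundant with Cox8a, stood at 3279 and 2469 RPKM in WT, 3084 in Notch1 cKO, and 2237 and 2096 in Notch2 cKO. Ndufa4, first described in complex I and now placed in complex IV, stood at 2758 and 1512 RPKM in WT, 1865 in Notch1 cKO, and 1261 and 1432 in Notch2 cKO. In all 3 the Notch2 cKO pair was the lowest, and the log2 fold change of Cox5b was -0.71 ± 0.29 (adjusted p of 0.476, limma). Cox8a stood at 3222 and 1813 RPKM in WT, 2757 in Notch1 cKO, and 1933 and 1759 in Notch2 cKO, with overlap.

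In complex V, the ATP synthase, 15 of 17 nuclear members lay below 0 in Notch2 cKO against WT, with a median of -0.47, or -0.13 without WT Em2. Atp5h, subunit d of the stator (chr11:115415691-115419919), stood at 699.7 and 352.2 RPKM in WT, 469.8 in Notch1 cKO, and 304 and 290.6 in Notch2 cKO, a log2 fold change of -0.74 ± 0.30 (adjusted p of 0.476, limma). Atp5b, the catalytic beta subunit, stood at 1819 and 2183 RPKM in WT, 2076 in Notch1 cKO, and 1922 and 2278 in Notch2 cKO. The 2 genes differ in pattern: Atp5h was highest in WT Em2 and lowest in the Notch2 cKO pair, while Atp5b was lowest in WT Em2 and its groups overlapped. The c ring is encoded by 3 genes of the same mature protein. Atp5g3 stood at 3652 and 2687 RPKM in WT, 2840 in Notch1 cKO, and 2704 and 2227 in Notch2 cKO. Atp5g1 stood at 673.4 and 394.8 RPKM in WT, 551.3 in Notch1 cKO, and 398.7 and 346 in Notch2 cKO. Atp5g2 stood at 188 and 128.9 RPKM in WT, 190.7 in Notch1 cKO, and 120.4 and 102.9 in Notch2 cKO. Their order was the same in each library, with Atp5g1 at 14.7% to 19.4% of Atp5g3 and Atp5g2 at 4.45% to 6.72% of it. Of the stretches of Atp5g2, 38.3% occur in other annotated genes.

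**Figure D3:**
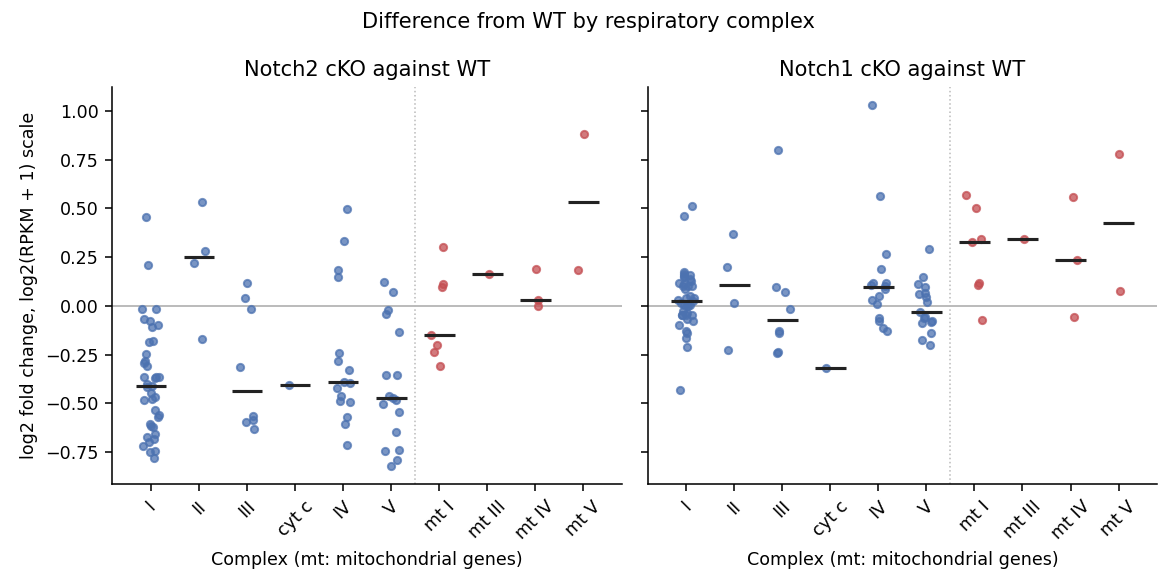
log2 fold change against WT, on the log2(RPKM + 1) scale, of each member tested in Notch2 cKO (left) and Notch1 cKO (right), by complex, nuclear members in blue and mitochondrial members (mt) in red, with the median as a bar. In Notch2 cKO the nuclear medians lie at -0.41, -0.44, -0.39 and -0.47 for complexes I, III, IV and V and at 0.25 for complex II.

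Muscle isoforms of complex IV were low beside their widely expressed partners. Cox6a2, the heart and skeletal muscle isoform (chr7:128205435-128206366), stood at 24.24 and 22.18 RPKM in WT, 25.06 in Notch1 cKO, and 31.61 and 34.74 in Notch2 cKO. Cox6a1 stood at 2845 and 1747 RPKM in WT, 2369 in Notch1 cKO, and 1787 and 1466 in Notch2 cKO. Cox6a2 was 0.852% and 1.27% of Cox6a1 in WT, 1.06% in Notch1 cKO, and 1.77% and 2.37% in Notch2 cKO. Both Notch2 cKO libraries were above all others in this share, and for Cox6a2 itself the log2 fold change was 0.50 ± 0.27 (adjusted p of 0.699, limma). Cox8b (chr7:140898942-140900446) stood at 24.6 and 18.68 RPKM in WT, 32.24 in Notch1 cKO, and 27.63 and 26.95 in Notch2 cKO. Cox8b was 0.763% and 1.03% of Cox8a in WT, 1.17% in Notch1 cKO, and 1.43% and 1.53% in Notch2 cKO, an order in which the Notch2 cKO pair was again highest.

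The remaining isoform pairs were lower or less regular. Cox7a1 (chr7:30184171-30186030) stood at 10.41 and 4.304 RPKM in WT, 7.058 in Notch1 cKO, and 8.958 and 6.824 in Notch2 cKO. Its partner Cox7a2 stood at 353.9 and 178.2 RPKM in WT, 302.5 in Notch1 cKO, and 201 and 198.3 in Notch2 cKO. Cox7a1 was 2.94% and 2.41% of Cox7a2 in WT, 2.33% in Notch1 cKO, and 4.46% and 3.44% in Notch2 cKO. Here the level of Cox7a1 overlapped between groups while its share did not. Cox7a2l, which takes part in supercomplexes, stood at 155.2 and 134.2 RPKM in WT, 145.4 in Notch1 cKO, and 125.9 and 118.2 in Notch2 cKO. Cox6b2, an isoform known from testis (chr7:4751792-4753094), stood at 42.79 and 23.04 RPKM in WT, 65.19 in Notch1 cKO, and 39.27 and 31.19 in Notch2 cKO. Its partner Cox6b1 stood at 2964 and 1717 RPKM in WT, 2424 in Notch1 cKO, and 1490 and 1545 in Notch2 cKO. Cox6b2 was highest in Notch1 cKO, with a log2 fold change of 1.03 ± 0.33 against WT (adjusted p of 0.662, limma), the smallest p of any member in that comparison. Cox4i2, an isoform known from lung, was between 0.3611 and 0.668 RPKM, and Cox8c, known from testis, was listed at 0 in 4 libraries. Such a share combines the differences of both genes, and the partners differ in length, 659 against 533 bases for Cox6a2 and Cox6a1, 363 against 545 for Cox8b and Cox8a, and 366 against 754 for Cox7a1 and Cox7a2.

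**Figure D4:**
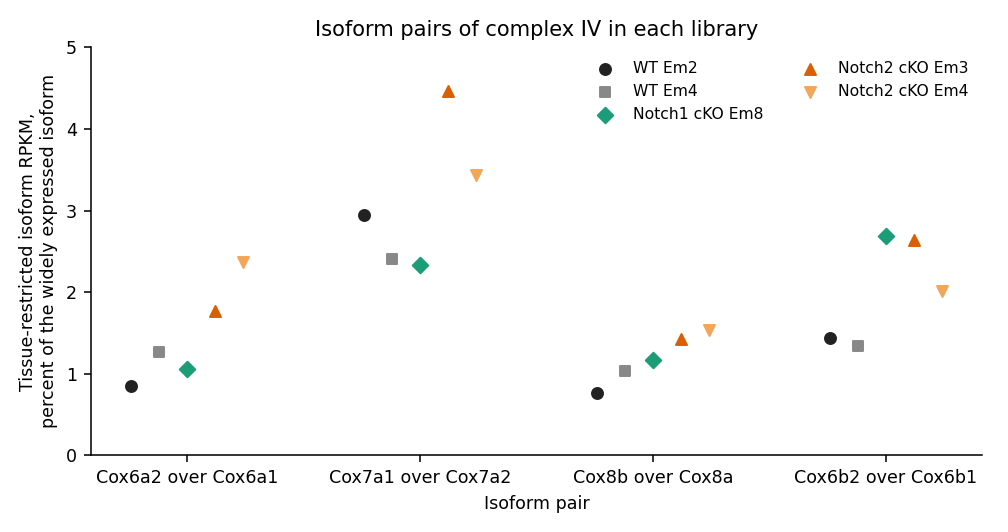
RPKM of 4 tissue-restricted complex IV isoforms as a percent of the widely expressed isoform, 1 point per library. Both Notch2 cKO libraries lie above both WT libraries in all 4 pairs. The Notch1 cKO library lies beside WT for Cox6a2 and Cox7a1, between the WT and Notch2 cKO pairs for Cox8b, and highest for Cox6b2, at 2.69%.

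The summed level of muscle fibre markers (11 of 15 tested) was 1032 and 968.8 RPKM in WT, 1256 in Notch1 cKO, and 1261 and 1437 in Notch2 cKO. In Notch1 cKO it was thus close to Notch2 cKO Em3. The share of Cox6a2 in Notch1 cKO lay between the WT libraries and that of Cox7a1 below them. That of Cox8b (1.17%) lay above both WT libraries (0.763% and 1.03%). Acta1, skeletal actin, stood at 128.9 and 144.6 RPKM in WT, 185.9 in Notch1 cKO, and 227.7 and 280.8 in Notch2 cKO. Myoblast and progenitor markers (10 of 10 tested) summed to 1446 and 1805 RPKM in WT, 1368 in Notch1 cKO, and 2115 and 2287 in Notch2 cKO, so markers of the labelled cell type were detected in each library. Brown adipocyte markers (5 of 8 tested) summed to 79.39 and 44.92 RPKM in WT, 72.34 in Notch1 cKO, and 118.6 and 96.06 in Notch2 cKO, with Ucp1 at most 0.5572 RPKM. The sums of both lists of myogenic markers and of the brown adipocyte list were higher in each Notch2 cKO library than in each WT library. Myog made up the larger part of the progenitor sum, at 1053 and 1272 RPKM in WT and 1655 and 1737 RPKM in Notch2 cKO. Pax7, on the same list, stood at 9.896 and 11.96 RPKM in WT and 10.74 and 4.146 RPKM in Notch2 cKO, with overlap. Of the 10 progenitor markers, 7 lay above 0 and 3 below in Notch2 cKO against WT, where 7859 of 11543 genes tested lay above. Erythroid markers (6 of 9 tested) summed to 981.2 and 1224 RPKM in WT, 1749 in Notch1 cKO, and 521.4 and 450.2 in Notch2 cKO, in sorts that gated on Ter119. Interstitial fibroblast markers (10 of 12 tested) summed to 182.6 and 312.5 RPKM in WT, 451.3 in Notch1 cKO, and 285.6 and 491.2 in Notch2 cKO, and tendon and cartilage markers (8 of 10 tested) to 48.16 to 68.36 RPKM in 4 libraries and 173.5 RPKM in Notch2 cKO Em4. Pericyte and smooth muscle markers summed to 224.6 to 324.8 RPKM, with overlap. Endothelial and haematopoietic markers summed to at most 40.07 and 27.63 RPKM. Mast cell markers (3 of 7 tested) summed to 3.421 and 8.986 RPKM in WT, 1.253 in Notch1 cKO, and 11.51 and 31.4 in Notch2 cKO. In Notch2 cKO against WT (limma, adjusted p of 0.05 or less), 2 of these 3 and 2 of the 5 brown adipocyte markers were called higher. In the same comparison 3 of the 6 erythroid markers were called lower, no marker of the other lists was called, and 0.537% of all genes were called. No list had a marker at 0 in all 5 libraries, and the part of these cell types in the values of the members was not tested.

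The members' differences went with gene length. The nuclear members are short, with a median of 641 bases (292 to 3059) against 2619 bases for all genes tested, as recovered from the RPKM steps. Across the 85 nuclear members, the Spearman correlation of length with the log2 fold change was 0.590 in Notch2 cKO against WT, -0.304 in Notch1 cKO against WT and 0.601 in Notch2 cKO against Notch1 cKO. Across all genes tested it was 0.248, 0.094 and 0.147. Over nuclear members the value for Notch1 cKO turned sign with the WT library, 0.410 against WT Em2 and -0.605 against WT Em4, and the value for Notch2 cKO against WT was 0.282 without WT Em2. These are descriptions across genes that share their libraries, and genes are not replicates. Between the WT libraries alone, Em2 minus Em4, it was -0.660 over nuclear members and -0.483 over all genes. Between the Notch2 cKO and WT libraries that carry the same digits in their column names, Em4 minus Em4, it was 0.337 over nuclear members and -0.060 over all genes. For Notch2 cKO Em3 minus WT Em4 it was 0.110 and 0.026. For Notch2 cKO Em3 minus Notch1 cKO Em8, which also carry the same digits, it was 0.613 and 0.199.

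Within length classes, the median of nuclear members in Notch2 cKO against WT lay nearer to that of all genes. In the shortest of 4 length classes (median of 496.5 bases for members), the median log2 fold change was -0.58 over 40 nuclear members and -0.36 over 621 genes of all kinds. In the next class (739 bases) it was -0.35 over 21 members and -0.20 over 842 genes. In the third class (1251 bases) it was -0.07 over 11 members and -0.03 over 1280 genes, and in the longest (1879 bases) -0.02 over 13 members and 0.19 over 8797 genes. Within a class the members' median thus differed from that of all genes by -0.22 to -0.04, against -0.54 without classes. Without WT Em2 the members' medians in these classes were -0.17, -0.13, 0.02 and 0.00, and those of all genes -0.12, -0.06, 0.01 and 0.05. A gap within a class was also present between the WT libraries, where WT Em2 minus WT Em4 was 0.90 over the shortest members and 0.57 over all genes of that class. With the trend on gene length removed from each library, the median was -0.13 over nuclear members, 0.22 over mitochondrial members and 0.01 over all genes. The median deviation of nuclear members with that trend removed was 0.16 and -0.04 in WT, 0.04 in Notch1 cKO, and -0.13 and -0.01 in Notch2 cKO, so Notch2 cKO Em4 then lay above WT Em4.

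**Figure D5:**
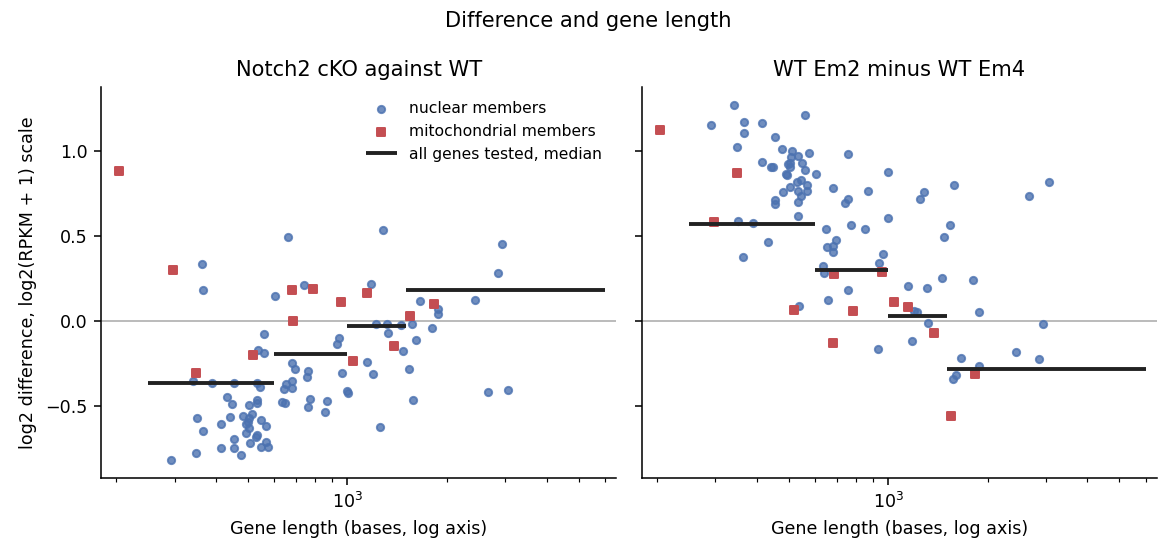
log2 difference against gene length (bases, log axis) for Notch2 cKO against WT (left) and WT Em2 minus WT Em4 (right), nuclear members as circles, mitochondrial members as squares and the median of all genes tested in 4 length classes as bars. Short nuclear members lie lowest on the left and highest on the right, and the bars run the same way, from -0.36 to 0.19 on the left and from 0.57 to -0.28 on the right.

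The shortest mitochondrial members differed among themselves. In Notch2 cKO against WT, ATP8 (204 bases) and ND4L (297 bases) had log2 fold changes of 0.88 and 0.30, and ND3 (348 bases) had -0.31, on the side of the short nuclear members. Between the WT libraries ATP8, ND3 and ND4L were all higher in WT Em2 than in WT Em4.

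Other mitochondrial lists gave a mixed picture, and none of their genes was called in Notch2 cKO against WT or in Notch1 cKO against WT. Of 41 assembly factors tested, 22 lay above 0 in Notch2 cKO against WT, with a median of 0.08, or 25 and 0.18 without WT Em2. Pet100, an assembly factor of complex IV, stood at 70.07 and 37.77 RPKM in WT, 57.94 in Notch1 cKO, and 31.69 and 27.39 in Notch2 cKO. Cox17, a copper chaperone of complex IV, stood at 718.2 and 356.3 RPKM in WT, 485.3 in Notch1 cKO, and 313.6 and 277 in Notch2 cKO. In these 2 picked genes each Notch2 cKO library was below each WT library. Of the 41 assembly factors, 8 were below and 12 above in this way (19.5% and 29.3%), against 9.4% and 28.3% of all genes tested. Of 77 mitochondrial ribosomal proteins tested, 18 lay above 0, with a median of -0.20, or 37 and -0.02 without WT Em2. Mrps21 stood at 879.5 and 449.6 RPKM in WT, 632.7 in Notch1 cKO, and 399.6 and 367.9 in Notch2 cKO. Mrpl14 stood at 338.2 and 229 RPKM in WT, 291.3 in Notch1 cKO, and 171.8 and 187.8 in Notch2 cKO. In both the Notch2 cKO pair was the lowest. Of 22 genes of import and the outer membrane tested, 8 lay above 0, with a median of -0.08, or 6 and -0.05 without WT Em2. Tomm7, a subunit of the outer membrane translocase, stood at 431 and 227.3 RPKM in WT, 302.4 in Notch1 cKO, and 178.4 and 172.5 in Notch2 cKO. Timm13, a chaperone of the space between the membranes, stood at 461.9 and 349.5 RPKM in WT, 406.1 in Notch1 cKO, and 291.9 and 257.6 in Notch2 cKO. Both were lower in each Notch2 cKO library than in each WT library.

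Genes that express mitochondrial DNA and those of the citric acid cycle lay mostly above 0, as did 68.1% of all genes tested and 77.7% of those in the longest length class, whose median was 0.19. Of 28 genes of mitochondrial DNA expression tested, 21 (75%) lay above 0 in Notch2 cKO against WT, with a median of 0.23, a share close to that background. In Notch1 cKO against WT, 2 of the 28 lay above 0, with a median of -0.14, where 51.5% of all genes tested lay above 0. That count was 6 without WT Em2 (median -0.26) and 11 without WT Em4 (median -0.11), where 37.0% and 61.1% of all genes lay above 0. Mtpap, the mitochondrial poly(A) polymerase, stood at 13.73 and 12.1 RPKM in WT, 12.59 in Notch1 cKO, and 19.92 and 21.9 in Notch2 cKO. Pnpt1, a mitochondrial RNA exonuclease, stood at 12.74 and 11.62 RPKM in WT, 10.03 in Notch1 cKO, and 16.21 and 24.22 in Notch2 cKO. For both, each Notch2 cKO library was above each WT library, with log2 fold changes of 0.66 ± 0.29 and 0.66 ± 0.30 (adjusted p of 0.561 and 0.569, limma). Tfam, which packages and helps to transcribe mitochondrial DNA, stood at 24.67 and 22.28 RPKM in WT, 18.61 in Notch1 cKO, and 26.85 and 24.13 in Notch2 cKO, with overlap. Of 18 citric acid cycle genes, 16 lay above 0 in Notch2 cKO against WT (median 0.28) and 1 in Notch1 cKO against WT (median -0.23), and these are longer genes, with a median of 2261 bases. The median in Notch2 cKO was 0.09 without Notch2 cKO Em4 and 0.44 without Em3, so it rested largely on Em4. Pdha1, the E1 alpha subunit of pyruvate dehydrogenase, stood at 30.5 and 27.11 RPKM in WT, 20.88 in Notch1 cKO, and 33.49 and 53.31 in Notch2 cKO. Suclg2, a subunit of succinyl-CoA ligase, stood at 9.686 and 12.15 RPKM in WT, 8.175 in Notch1 cKO, and 14.17 and 19.71 in Notch2 cKO. The Notch2 cKO pair was highest and Notch1 cKO lowest for both.

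Of 14 regulators of mitochondrial biogenesis, 8 were tested and 7 of these lay above 0 in Notch2 cKO against WT, with a median of 0.22, close to the median of genes in the longest class. Without WT Em2 the count was 5 and the median 0.04. Nrf1 stood at 10.58 and 15.02 RPKM in WT, 11.31 in Notch1 cKO, and 13.97 and 14.03 in Notch2 cKO. Gabpa stood at 9.173 and 12.05 RPKM in WT, 9.858 in Notch1 cKO, and 11.5 and 14.66 in Notch2 cKO. The groups overlapped for both of these factors, whose letters stand in the promoters printed above. Esrra, an estrogen-related receptor, stood at 2.192 and 3.357 RPKM in WT, 3.561 in Notch1 cKO, and 4.602 and 3.914 in Notch2 cKO. Myc stood at 19.65 and 30.37 RPKM in WT, 30.39 in Notch1 cKO, and 25.81 and 39.6 in Notch2 cKO. Each Notch2 cKO library was above each WT library for Esrra and not for Myc. Ppargc1a, a coactivator of this gene program, was at 0.613 to 1.448 RPKM and was not tested.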

How the data were processed

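RNA of sorted cells was made into SMART-Seq v4 libraries and sequenced as paired ends, per the labels' protocols. The authors deposited RPKM values for 27179 rows; bcl2fastq 2.20.0 and build mm10 come from the submitters' processing notes, and no aligner, counter or annotation is named there (not given in the sources used here). The 1306 rows without a gene name (2.192% to 3.071% of summed RPKM) were left out. The columns carry no replicate number, so each was assigned to its group only. The main test was limma 3.58.1 (R 4.3.3; lmFit, eBayes with trend) on log2(RPKM + 1), 1 mean per group, all 5 libraries, 2 residual degrees of freedom plus a prior of 103.8, two-sided; the pseudocount understates changes of low genes, and the lone Notch1 cKO library is taken to vary as the other groups do. Errors after ± are SE. Whole reads and gene lengths were recovered from the RPKM steps (98.11% of 5781 genes gave whole lengths within 0.02 bases). The fit was tested on simulated data. Members, lists and markers were chosen with earlier results of these data known. Named were all mitochondrial members, the nuclear members of the 4 smallest p in each direction of each comparison and the 2 most abundant of each complex. Fixed isoform sets and up to 2 genes of smallest p of each other list were also named. Tfam, Nrf1, Gabpa, Ppargc1a, Acta1, Ucp1, Myog, Pax7, gene copies, untested members and the mitochondrial ribosomal RNAs were added outside that rule, after their values were seen. Alternatives were pseudocounts of 0.1 and 0.5, no filter, a mean of 5 RPKM, median-of-ratios, quantile and equal-sum scaling, removal of the length trend (loess), limma voom, and each library left out.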

Additional observations from a re-analysis of the deposited data

How the results depend on the processing

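No paired analysis was possible because the columns carry no replicate numbers, so the replicate block was not run. Members called in Notch2 cKO against WT were 0 as reported, 1 (ATP8) with libraries rescaled to the same sum without mitochondrial rows, and 0 to 37 with 1 library left out (37 without WT Em4, 1 without WT Em2). In Notch2 cKO against Notch1 cKO they were 0 to 5 with 1 library left out (4 without WT Em2: Atp5e, Atp5k, Cyc1 and Ndufa3; 5 without WT Em4, those and Atp5j2), where 0.507% and 0.485% of all genes passed. In Notch1 cKO against WT they were 0 under each alternative run. The nuclear minus the mitochondrial median in Notch2 cKO against WT was -0.50 as reported, -0.76 (without WT Em4) to -0.24 (without WT Em2) with 1 library left out, and -0.22 between the libraries of the same column digits, Em4 and Em4, a comparison chosen after seeing the data. For Notch2 cKO Em3 minus Notch1 cKO Em8, which also carry the same digits, it was -0.19, with a nuclear median of -0.47. In Notch1 cKO against WT it was -0.30 as reported and ran from -0.51 (without WT Em4) to 0.041 (without WT Em2), where it reversed. The cause of these moves was not tested. Under quantile normalization the mitochondrial share was 2.19% (WT Em2), 2.84% (WT Em4), 2.85% (Notch1 cKO), 3.0% (Notch2 cKO Em3) and 3.39% (Notch2 cKO Em4). The number of genes called among all tested in Notch2 cKO against WT was 62. It was 27 (0.234%) with libraries rescaled to the same sum without mitochondrial rows, a setting in which ATP8 passed. It was 0 without a filter on the mean, 4 after quantile normalization, 2 with the length trend removed and 1 with limma voom. The mitochondrial median in Notch2 cKO against Notch1 cKO, -0.23 as reported, was 0.05 after quantile normalization and 0.10 with the length trend removed. Of the 630 values of named members in Notch2 cKO against WT under alternatives, 46 changed sign and 15 passed the threshold.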
